A study of Saccharomyces cerevisiae with 268 samples.

Results

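The 8 strains described here are each labelled as lacking a gene for a protein that travels with RNA polymerase II or acts on the chromatin it transcribes. They were chosen by the deleted gene named in the label, by a rule that uses no measured value, and make up 8 of the deletion columns of the series, beside 260 others. The deleted genes are SPT4 (YGR063C), RTF1 (YGL244W), CDC73 (YLR418C), THO2 (YNL139C), SPT2 (YER161C), BYE1 (YKL005C), SET2 (YJL168C) and RCO1 (YMR075W) of the budding yeast Saccharomyces cerevisiae. Those 260 columns served as the comparison group and are labelled as deletions of other genes for regulators of transcription. They include columns labelled with the essential genes RAP1, REB1, ABF1, HSF1 and MCM1, where full loss of the gene is not assumed.

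Arrays compared Cy5-labelled total RNA of each deletion strain with Cy3-labelled RNA of wild type, both taken in mid-log growth. The study aimed to refine a network of transcriptional regulators and their target genes. Each strain has 1 column of deposited scores and no replicate, and all groups share the wild type as their reference. The labels do not state the strain background, the mating type, the medium, the deletion cassette or the number of cultures and arrays behind a column. A score above 0 is read as more RNA in the deletion strain than in wild type, and differences are given in score units, since their scale and log base are unstated.

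As background, Spt4 forms with Spt5 the elongation factor that helps polymerase II move through long transcription units. Rtf1 and Cdc73 are subunits of the Paf1 complex, which is needed for ubiquitylation of histone H2B during transcription, and Tho2 is a subunit of the THO complex, which couples elongation to packaging and export of the messenger RNA. Spt2 is a histone chaperone that binds transcribed chromatin, and Bye1 binds the polymerase through a domain like that of the elongation factor TFIIS. Set2 methylates lysine 36 of histone H3 behind the polymerase, and Rco1 is a subunit of Rpd3S, the deacetylase complex that reads this mark and restrains transcription from within genes.

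The deleted gene was checked first, in its own column. CDC73 (-3.37), BYE1 (-3.41) and RCO1 (-3.72) were at their lowest of all columns there, and SET2 (-3.02) was the 3rd lowest. RTF1 at -0.98 was the 11th lowest and SPT2 at -0.76 the 9th lowest of the columns with a value. SPT4 stood at 1.09 in its own column and THO2 at 0.95, both above their medians in the 260 columns (0.24 and 0.32). These values do not show the loss of SPT4 or THO2, so both are called here the columns labelled with that gene. Probe positions are not given, so a probe outside the deleted part is possible and was not tested. In the RCO1 column the next gene, SDD2, also had its lowest score of all columns (-3.58), as did YMR075C-A (-2.99), which overlaps RCO1. In the SPT4 column ADE6, the second gene from SPT4, lay 2.82 units below its median in the other columns (-3.36 against -0.54).

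Markers of mating type set the CDC73 column apart. Both a-specific and alpha-specific genes were far low in it, with the a-factor gene MFA1 at -5.04, the alpha-factor receptor gene STE2 at -4.05 and the a-factor receptor gene STE3 at -3.82. Of 7 a-specific genes, 6 had a value and 4 lay at least 2 units below their median, and of 4 alpha-specific genes 3 did, beside 4.25% of all genes in that column. CDC73 was the only one of the 8 columns in which at least 2 of 4 markers or at least 3 of 5 a-specific genes lay 3 units or more below their median, and 40 of the other 260 columns met the same criterion. Results that rest on the CDC73 column are therefore also given without it, and the part of mating type in them was not tested. In RNA of a whole culture, fewer cells of a type and less RNA per cell cannot be told apart.

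The 8 columns together differed from the 260 in 5 of 5615 genes by limma (0.089% called at an adjusted p under 0.05), 3 higher and 2 lower. The higher genes were SER3, PUL3 and CSS1, and the lower ones AIF1 and YGL159W. The call of PUL3 (1.07, adjusted p = 0.00755, limma) was lost without SET2 (0.44, adjusted p = 0.9998) or RCO1 (0.92, adjusted p = 0.104). At an unadjusted p under 0.05 limma had 4.17% of genes, and the exact Mann-Whitney test per gene called 0 genes (4.36% unadjusted, smallest adjusted p 0.978). The columns are different genotypes, so these p-values rest on the spread between strains.

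SER3 encodes phosphoglycerate dehydrogenase, the first step of serine synthesis, and is known to be repressed by transcription of the non-coding RNA SRG1 across its promoter. Its score was 6.49 in the column labelled SPT4, 1.72 in RTF1, 4.81 in CDC73, -1.29 in the column labelled THO2, 6.70 in SPT2, -0.39 in BYE1, 0.26 in SET2 and -0.21 in RCO1. In the 260 columns it ran from -2.02 through a median of -0.14 to 7.56. SPT4, CDC73 and SPT2 thus stood high, RTF1 was moderately above the median and the other 4 lay near or below it, and the groups overlapped. Of the 260 columns, 14 had SER3 at least 2 units above its median.

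The mean difference of SER3 was 2.12 ± 0.50 (SE, 8 columns against 260; adjusted p = 0.0353, limma). The SD was 3.25 over the 8 columns and 1.32 over the 260. The call was lost without SPT2 (adjusted p = 0.684, limma), CDC73 (0.636), SPT4 (0.605), RTF1 (0.0746) or SET2 (0.0534). SER3's paralog SER33 lay between -1.81 and -0.09 in the 8 columns, and of the 4 serine synthesis genes SER3 was the only one called. SER1, the next enzyme of the pathway, ran from -2.11 in SPT2 to -0.16 in SET2.

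**Figure D1:**
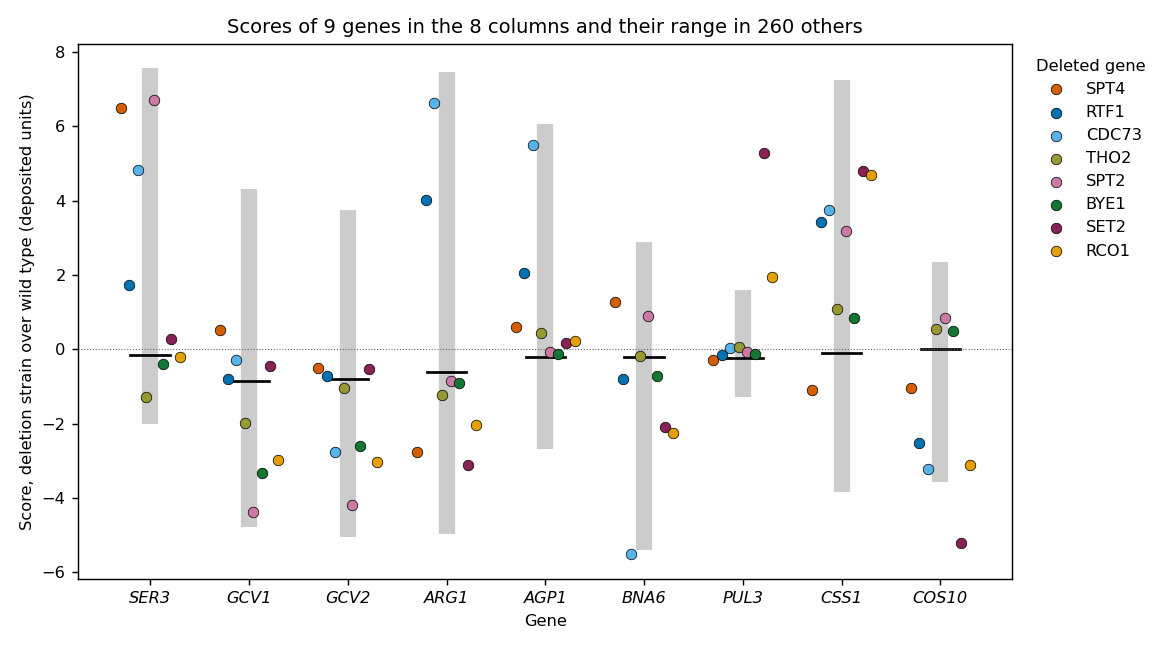
Deposited scores (deletion over wild type, vertical axis) of 9 genes. Each coloured point is the column of 1 deletion strain, the grey bar spans the lowest to the highest of the 260 other columns, and the black line is their median; SER3 reaches 6.49 and 6.70 in the SPT4 and SPT2 columns, and PUL3 leaves the grey bar in SET2 and RCO1.

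Glycine cleavage genes, which the cell uses to make 1-carbon units from glycine, were low in SPT2, RCO1 and BYE1. GCV1 was at 0.51 in SPT4, -0.79 in RTF1, -0.30 in CDC73, -1.98 in THO2, -4.37 in SPT2, -3.34 in BYE1, -0.46 in SET2 and -2.97 in RCO1, against -4.79, -0.85 and 4.32 (lowest, median, highest) in the 260. GCV2, the decarboxylase subunit, was lowest in SPT2 (-4.20), RCO1 (-3.03), CDC73 (-2.76) and BYE1 (-2.59). GCV3 was lowest in SPT2 (-2.98) and stood at 2.55 in SPT4. Over these 3 genes, which were chosen after their values were seen, the median difference in SPT2 was -3.41, the 3rd lowest of all columns. None of the 3 was called for the 8 columns together (GCV2 -1.20 ± 0.51, adjusted p = 0.990, limma).

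CSS1 encodes a protein similar in sequence to the cell wall mannoprotein Hpf1. It scored -1.10 in SPT4, 3.42 in RTF1, 3.76 in CDC73, 1.07 in THO2, 3.18 in SPT2, 0.83 in BYE1, 4.78 in SET2 and 4.68 in RCO1, against -3.83, -0.09 and 7.25 in the 260. It lay above the median in 7 of 8 columns, and the mean difference was 2.55 ± 0.57 (adjusted p = 0.0279, limma). The call was lost without SET2 (0.357), RCO1 (0.217), CDC73 (0.195), RTF1 (0.0861) or SPT2 (0.0652). HPF1 ran alike, from -1.16 in SPT4 to 5.27 in CDC73, and missed the threshold (2.61 ± 0.72, adjusted p = 0.231, limma). Whether the probes separate CSS1 from HPF1 is not given, so signal shared between them cannot be told apart.

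AIF1, the gene of a mitochondrial cell death effector, lay below its median in 8 of 8 columns. Its scores were -1.30 in SPT4, -1.82 in RTF1, -3.73 in CDC73, -0.86 in THO2, -0.93 in SPT2, -1.48 in BYE1, -4.64 in SET2 and -1.99 in RCO1, against -6.03, -0.75 and 2.40 in the 260. The difference was -1.36 ± 0.32 (adjusted p = 0.0353, limma). SET2 and CDC73 were the lowest of the 8, and the call was lost without SET2 (adjusted p = 0.9998, limma), CDC73 (0.636), RTF1 (0.0746) or RCO1 (0.0965). YGL159W, an uncharacterized gene, differed by -0.94 ± 0.22 (adjusted p = 0.0353, limma). It was lost without CDC73 (0.986), SET2 (0.275), RTF1 (0.201) or SPT4 (0.0872).

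The pair of Paf1 complex strains, RTF1 and CDC73, differed from the 260 columns in 16 of 5613 genes (0.285% called, limma). Of these 5 were higher (0.0891%) and 11 lower (0.196%). Over all genes the 2 columns were only weakly alike (Pearson r 0.107 of the differences from the medians). RTF1 was most like HAP2 (0.511), SEF1 (0.432) and SAS3 (0.395), all outside the 8, and within the 8 most like SET2 (0.379). A mean of the pair need therefore not describe both strains. The higher genes included ARG1, which encodes argininosuccinate synthetase of arginine synthesis and is known to be repressed by the Paf1 complex, and AGP1, the gene of a broad amino acid permease. ARG1 was at -2.77 in SPT4, 4.03 in RTF1, 6.62 in CDC73, -1.23 in THO2, -0.85 in SPT2, -0.91 in BYE1, -3.12 in SET2 and -2.03 in RCO1, against -4.95, -0.60 and 7.45 in the 260. RTF1 and CDC73 were the only columns of the 8 above that median, and the other 6 all lay below it. ARG1 differed by 5.74 ± 1.23 in the pair (adjusted p = 0.00969, limma).

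AGP1 stood at 2.04 in RTF1 and 5.48 in CDC73, between -0.13 and 0.59 in the other 6 columns, and at -2.67, -0.22 and 6.06 in the 260. It differed by 3.87 ± 0.83 (adjusted p = 0.00969, limma). MIX17, whose protein lies in the mitochondrial intermembrane space, was nearly the same in both strains (1.79 and 1.86) and differed by 2.44 ± 0.61 (adjusted p = 0.0320, limma), but SPT4 stood at 2.08 as well. Of the 11 arginine genes, ARG1 was the only one called, and the list's median difference in the pair was 0.78 against -0.01 over all genes tested. In CDC73 alone 3 of the 11 lay at least 2 units above their median, beside 1.88% of all genes, with ARG3 at 2.32 and ARG4 at 2.02. In RTF1 2 of the 11 lay as far above, beside 0.971% of all genes, with ARG3 at -0.19 and ARG4 at -0.87 not among them, and in SPT4 2 of the 11 did, beside 6.37%.

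The lower genes of the Paf1 pair included enzymes and transporters of several pathways. SEC59, the dolichol kinase gene, scored -0.88 in RTF1 and -3.16 in CDC73 (-1.68 ± 0.37, adjusted p = 0.0109, limma), and CAX4, the gene of a dolichyl pyrophosphate phosphatase, -0.64 and -2.57 (-1.60 ± 0.38, adjusted p = 0.0194). HUT1, a sugar nucleotide transporter gene, was at -0.72 and -3.27. TCD2, which acts on a tRNA modification, was low in both (-1.95 and -2.54), as was MPA43 (-1.52 and -1.64). AFB1, an alpha-specific gene that blocks a-factor, was at -1.20 and -5.78, and BNA6 of NAD synthesis at -0.80 and -5.52. The other lower genes were ALF1, SMA2, YMR155W and YGL159W. NUD1, counted among the higher genes, lay on opposite sides of its median in the 2 strains (-0.90 and 3.14), and ARR2 had a value in RTF1 only.

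Without the CDC73 column no call was left. With RTF1 alone limma called 0 genes (4.3% of genes at an unadjusted p under 0.05), and with CDC73 alone 85 were, 13 of them among the 16. The difference of ARG1 was 4.45 without CDC73 (adjusted p = 0.884, limma), that of AGP1 2.16 (0.998) and that of BNA6 -0.56 (0.998). MIX17 and MPA43, which were close in both strains, kept their size without CDC73 (2.40 and -1.28) and lost the call without RTF1 too (adjusted p = 0.117 and 0.103, limma).

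**Figure D2:**
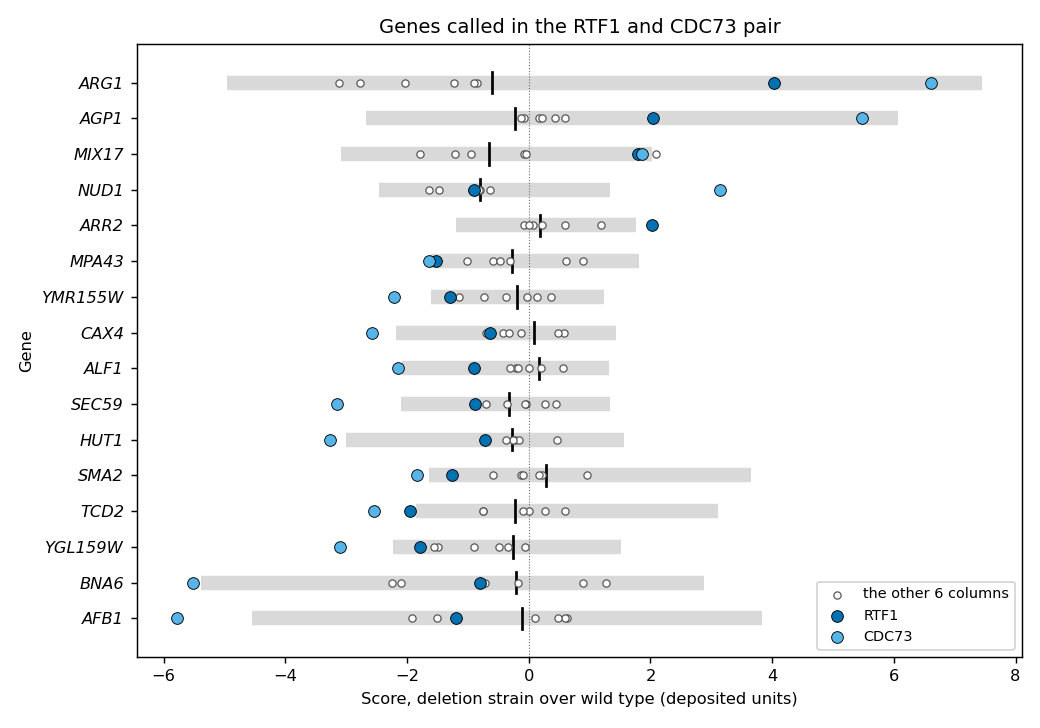
Deposited scores (horizontal axis) of the 16 genes called by limma in the RTF1 and CDC73 pair. Filled points are the 2 strains of the pair, open points the other 6 strains, grey bars the range of the 260 other columns and black lines their median; CDC73 lies farther out than RTF1 for most genes.

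In the CDC73 column taken alone, 1.88% of 5523 genes lay at least 2 units above their median in the 260 columns and 4.25% lay as far below. The 7 genes of NAD synthesis from tryptophan had the lowest list median of all columns there (-2.80), and 4 of the 7 were at least 2 units low. They were BNA6 (-5.52), BNA5 (-4.79), BNA1 (-3.67) and BNA4 (-3.30), while BNA2 stood at 1.75, BNA3 at 1.30 and BNA7 at 0.78. In RTF1 the same list had a median difference of 0.66, with BNA6 at -0.80 and BNA5 at -0.50. The BNA genes thus did not run alike in the 2 strains of the Paf1 complex.

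Genes of chromosome ends were low in CDC73 as well. The 12 subtelomeric COS genes had a median difference of -1.90, the 2nd lowest of all columns. Of them 6 lay at least 2 units low, beside 4.25% of all genes, among them COS4 (-3.41), COS2 (-3.33), COS10 (-3.23) and COS3 (-3.21). COS5 (0.47) and COS9 (0.81) did not. The YRF1 genes, a family of near-identical helicase genes at telomeres chosen after their values were seen, had a median difference of -2.46 in CDC73, -2.22 in SPT4 and -1.21 in RTF1. These were the lowest, the 2nd lowest and the 21st lowest of all columns. In the other 5 strains the YRF1 median lay between 0.52 and 1.10 above. Probe sequences are not given, so signal shared between near-identical copies such as the YRF1 genes cannot be told apart.

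Phosphate acquisition genes were low in CDC73 too, 5 of 15 by at least 2 units beside 4.25% of all genes. PHO11 was at -4.37, PHO12 at -4.21 and PHM6 at -4.10. The list's median difference of -1.23 was the 31st lowest of all columns. Of the 23 cell wall genes 6 lay at least 2 units low and 21 lay below their median (list median -1.44, the 10th lowest), in contrast to a median of 1.18 in SPT4.

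The SET2 and RCO1 pair differed from the 260 columns in 16 of 5615 genes (0.285% called, limma). Of these 14 were higher (0.249%) and 2 lower (0.0356%). Over all genes these 2 columns were hardly alike (Pearson r 0.059), and RCO1 was more like BYE1 (0.391). PUL3, named after a transporter gene of the pigment pulcherrimin in Kluyveromyces lactis, scored -0.29 in SPT4, -0.16 in RTF1, 0.04 in CDC73, 0.05 in THO2, -0.07 in SPT2, -0.14 in BYE1, 5.27 in SET2 and 1.94 in RCO1. In the 260 columns it ran from -1.29 through -0.24 to 1.60. Those 260 include columns labelled with RPD3, SIN3 and UME1, genes of other Rpd3S subunits, so PUL3 did not exceed 1.60 there either. SET2 and RCO1 both lay above every one of the 260, and the other 6 strains lay between -0.29 and 0.05. The difference was 3.85 ± 0.39 (adjusted p = 2.31e-16, limma). It was 2.18 with RCO1 alone, where the call was lost (adjusted p = 0.111, limma).

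YNR064C, a gene for an epoxide hydrolase, is the second gene from PUL3. It scored 4.30 in SET2 and 1.75 in RCO1, against -1.92, -0.30 and 4.28 in the 260, and differed by 3.27 ± 0.48 (adjusted p = 1.18e-07, limma). PUL4, the gene between them, stood at 0.19 in SET2 and 1.02 in RCO1 and was not called (0.51 ± 0.58, adjusted p = 0.999). The 2 lower genes, AIF1 and COS10, are neighbours on the same chromosome. COS10 was at -1.03 in SPT4, -2.52 in RTF1, -3.23 in CDC73, 0.55 in THO2, 0.84 in SPT2, 0.50 in BYE1, -5.20 in SET2 and -3.11 in RCO1, against -3.57, 0.01 and 2.36 in the 260. It differed by -4.09 ± 0.74 (adjusted p = 0.000155, limma). The other 11 COS genes lay between -0.34 and 1.87 units from their medians in SET2, so COS10 stood apart from its family there.

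The genes higher in both strains had varied functions. TEL1, the gene of a checkpoint kinase that also maintains telomeres, was at 1.43 in SET2 and 1.53 in RCO1, with -1.31, -0.08 and 1.13 in the 260 (1.57 ± 0.31, adjusted p = 0.000982, limma). SSY1, the amino acid sensor gene, was at 1.70 and 1.61 (highest of the 260, 1.40), and CCH1, a calcium channel gene, at 1.54 and 1.02 (highest 0.99). For TEL1, SSY1 and CCH1, as for PUL3, both strains lay above all of the 260 columns with a value. For PUL3, SSY1 and CCH1 these include the columns labelled RPD3, SIN3 and UME1. TEL1 did not have a value in every column. In CDC73, SSY1 (1.47) also lay above the highest of the 260. CAT5 of ubiquinone synthesis (1.81 and 1.63), the ubiquitin ligase gene HUL5 (1.79 and 0.77), the cyclin gene PCL9 (1.71 and 2.54), ZDS1 (2.43 and 0.48), VRL1, WHI4, YMR090W and CSS1 were also higher. MET8 of siroheme synthesis had a value in SET2 only. The coding lengths of the 14 higher genes ran from 684 to 8364 bases with a median of 2082, against 1272 over all genes, and 8 of the 14 were longer than that median.

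The calls rested more on SET2 than on RCO1. With RCO1 alone 1 gene, VPS41, was called, which was not among the 16, and with SET2 alone 19 were, 9 of them shared with the pair. For COS10 the difference with RCO1 alone was -3.04 (adjusted p = 0.775, limma).

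**Figure D3:**
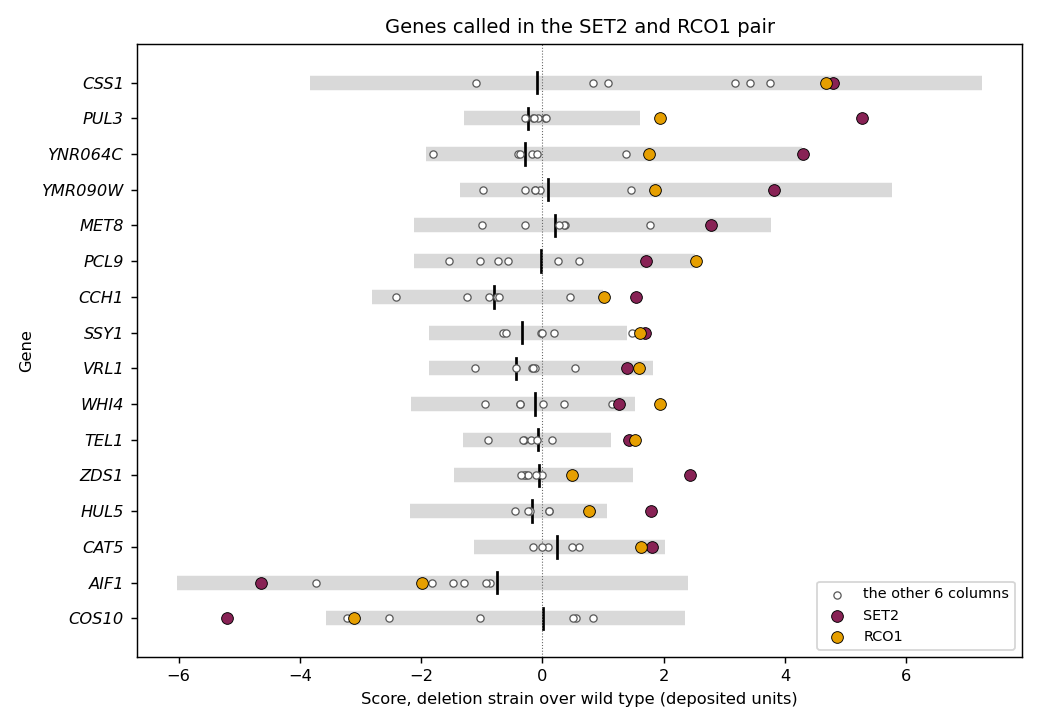
Deposited scores (horizontal axis) of the 16 genes called by limma in the SET2 and RCO1 pair. Filled points are the 2 strains of the pair, open points the other 6 strains, grey bars the range of the 260 other columns and black lines their median; for PUL3, SSY1, CCH1 and TEL1 both filled points lie beyond the grey bar.

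The 2 pairs were compared with each other in the same limma model, which called 4 of 5613 genes (0.0713%), 1 higher (0.0178%) and 3 lower (0.0534%) in the Paf1 pair. ARG1 was higher in the Paf1 pair by 7.90 ± 1.74 (mean 5.32 against -2.58, adjusted p = 0.0116, limma). PUL3 (-3.67 ± 0.54, adjusted p = 5.41e-07), YNR064C (-3.25 ± 0.67, adjusted p = 0.00400) and MPA43 (-2.34 ± 0.47, adjusted p = 0.00346) were higher in the SET2 and RCO1 pair. MPA43 lay at -1.52 and -1.64 in RTF1 and CDC73 and at 0.88 and 0.62 in SET2 and RCO1, so the strains within each pair stood close together. The ARG1 contrast was lost without CDC73 (6.60, adjusted p = 0.692, limma), SET2 (0.360) or RCO1 (0.0539). Without CDC73 the calls of MPA43 (-2.28, adjusted p = 0.114, limma) and YNR064C (-1.65, adjusted p = 0.9996) were lost as well. Without SET2 all 4 were lost, with adjusted p = 0.412 for PUL3, 0.778 for YNR064C and 0.196 for MPA43 (limma).

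The column labelled SPT4 had the widest response of the 8 as deposited. Under quantile normalization 2.77% of its genes lay at least 2 units from their median, close to CDC73 (2.5%), SET2 (2.4%), RTF1 (2.36%) and SPT2 (2.3%). As deposited, 548 of 5589 genes in SPT4 lay that far away, 6.37% above and 3.44% below. The 260 columns had 7 to 1293 such genes in either direction, with a median of 78.5. The genes above in SPT4 were short, with a median coding length of 465 bases, and those below were long, with 2482. Across genes, Spearman's rho of the score difference with coding length was -0.59, the 2nd lowest of all columns. The shortest 10% of the genes (median 384 bases) had a median difference of 1.38, the highest of all columns, and the longest 10% (median 3684 bases) -0.67, the 3rd lowest. Of the 260 other columns, 17 had a rho below -0.4, among them HAP2 (-0.59), SAS3 (-0.58) and SIR2 (-0.54). Over all genes this column was most like those labelled SAS3 (Pearson r 0.737), HAP2 (0.724) and GSM1 (0.664), which lie outside the 8. With the length trend removed, r was 0.603 with SAS3 and 0.579 with HAP2. The profile is therefore not particular to the column labelled SPT4. Genes are not independent replicates, and this single column has no replicate check.

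The genes that were high in SPT4 included those of the ribosome and the nucleosome. Of the cytosolic ribosomal protein genes, 46.4% lay at least 2 units above their median, beside 6.37% of all genes, and 4.35% lay below it. Their median difference of 1.83 was the 16th highest of all columns. Of the 8 core histone genes 5 lay at least 2 units above, with HHF2 at 2.68 and HTB2 at 2.18. All 8 lay above their median, and the list's median of 2.32 was the 20th highest. Neither list was measured with the length trend removed, so a part of length in them was not tested. Leaving out the ribosomal protein genes gave a rho of -0.58. Among transcription genes, SPT5 (-3.06), which encodes the partner of Spt4, SPT6 (-2.68) and RPO21 (-2.75), the gene of the largest polymerase II subunit, stood low, while the short elongation factor gene ELF1 stood at 2.79. SPT5 and SPT6 were below the lowest of the 260 columns (-2.66 and -2.39). In CDC73, by contrast, RPO21 stood at 1.90, above the highest of the 260 (1.53). SPT4 also had chromosome XI shifted by a median of 0.60 over 299 genes (rank 266 from the lowest of all columns), on which ARC19 (3.46), MRP17 (4.16) and MDM35 (3.50), among its highest genes, lie. With each chromosome centred, 9.48% of genes lay 2 units away, against 9.8% as deposited.

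Of 5 genes of ribonucleotide reductase and the response to DNA damage, 2 lay at least 2 units above their median in SPT4 and 1 as far below. Of all genes 6.37% and 3.44% did so in that column. HUG1, which inhibits ribonucleotide reductase, stood at 3.51 and the small subunit gene RNR2 at 1.57, whereas RNR1, a large subunit gene, stood at -2.61. None of the 5 was 2 units away in the other 7 columns.

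The other 7 strains had a weaker relation with length, and not all in the same direction. RTF1 had a rho of -0.26 and SET2 of -0.02, whereas rho was 0.23 in CDC73, 0.24 in SPT2, 0.24 in BYE1, 0.30 in THO2 and 0.33 in RCO1. RCO1 had the 12th highest rho of all columns. The mean rho of the 8 was 0.0579 ± 0.328 (SD) against 0.00102 ± 0.231 in the 260, and the difference of 0.0569 did not pass a two-sided permutation test over columns (p = 0.507). Among the longest 10% of the genes CDC73 had the 7th highest median of all columns (0.36).

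**Figure D4:**
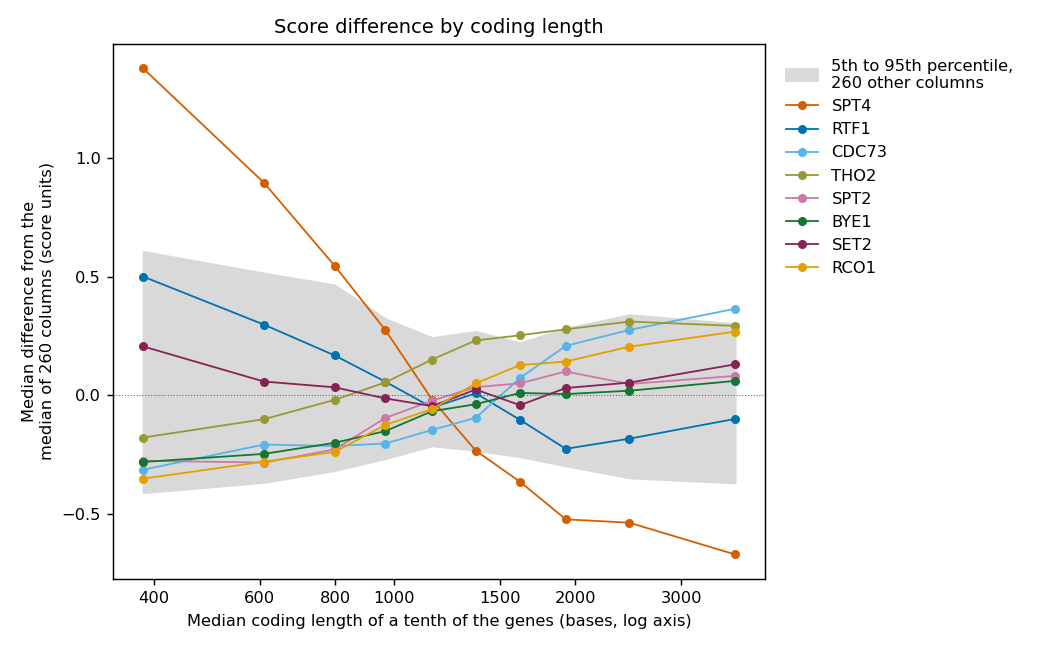
Median score difference from the 260 other columns (vertical axis, score units) in 10 equal groups of genes ordered by coding length (horizontal log axis, bases) for the 8 strains. The grey band spans the 5th to the 95th percentile of the 260 columns; SPT4 falls from 1.38 to -0.67 and leaves the band at both ends, and the other 7 strains stay mostly within it.

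The column labelled THO2 had the fewest such genes of the 8 as deposited, with 15 genes at least 2 units above and 5 below (0.268% and 0.0893% of 5602 genes, or 0.357% together). Under quantile normalization 1.96% of genes lay 2 units away, more than in BYE1 (1.36%) and RCO1 (1.69%). Of the 15 genes above, 5 belong to the list of 16 iron uptake genes. They were the cell wall mannoprotein genes FIT3 (4.73) and FIT2 (2.53), the siderophore transporter genes ENB1 (2.74) and SIT1 (1.66), and the ferroxidase gene FET3 (2.16). The list's median difference was 1.44, the 11th highest of all columns. Several of the 5 were often high, with FIT3 at least 2 units above its median in 49 of the 260 columns. For FIT2 it was 47 columns, for ENB1 43 and for FET3 18. SEC9, which acts in secretory vesicle fusion, stood at 3.14, above all of the 260 columns with a value for it (highest 2.05). CDC53, the gene of a cullin, stood at -2.23, below all of those with a value (lowest -1.89). Neither gene had a value in every column.

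Iron uptake genes were also high in BYE1 (median difference 1.5, the 9th highest), CDC73 (1.24), RCO1 (1.13) and SPT2 (0.97), and low in SPT4 (-1.05) and RTF1 (-0.85). FET3 was at -3.70 in SPT4, -2.26 in RTF1, 0.47 in CDC73, 2.16 in THO2, 1.40 in SPT2, 2.13 in BYE1, -0.21 in SET2 and 2.53 in RCO1, against -7.14, -0.66 and 3.49 in the 260. None of the 16 iron genes was called by limma for the 8 columns together or for either pair.

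In the BYE1 column 23 genes lay at least 2 units above and 10 below (0.412% and 0.179% of 5580 genes). Of the 10, 4 were the copies of ASP3, which encodes a cell wall asparaginase, with differences of -2.51 to -2.48. The copies are near-identical, and signal shared between them cannot be told apart. Genes of the G1 and S phases lay below their median in 16 of 20 cases, with a list median difference of -0.67, the 4th lowest of all columns, although none was 2 units low. The cyclin genes PCL1 (-2.86) and CLN2 (-2.19) were the lowest of these by difference, with POL1 (-1.03) next.

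The SPT2 column had 71 genes at least 2 units above and 16 below (1.27% and 0.287% of 5570 genes). The genes above included SER3 and 6 of the 23 general stress genes. TSL1 of trehalose synthesis stood at 4.22, the secreted glycoprotein gene YGP1 at 5.35, the cell wall gene SPI1 at 3.98 and the glucokinase gene GLK1 at 3.47. CAR1, the arginase gene, was at 3.59, and the membrane chaperone gene HSP30 at 5.30. Several of these genes were often high, with TSL1 at least 2 units above its median in 71 of the 260 columns. For YGP1 it was 58 columns and for HSP30 78, but for CAR1 13. The stress list's median difference in SPT2 (0.99) was the 37th highest of all columns. The phosphate transporter gene PHO89 was lowest by difference (-4.02, against a median of 1.21), followed by GCV1 and GCV2.

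SET2 alone had 82 genes at least 2 units above and 44 below (1.46% and 0.784% of 5613 genes). General stress genes lay above their median in 20 of 23 cases (list median 1.15, the 30th highest of all columns), 4 of them by at least 2 units. Heat shock chaperone genes did so in 17 of 18 cases (list median 0.90, rank 261 from the lowest), none of them by 2 units. RCO1 alone had 34 genes above and 23 below (0.611% and 0.413% of 5569 genes), and its stress list had a median of -0.37. The peptide transporter gene PTR2 (4.11 in SET2, 2.76 in RCO1), the zinc transporter gene ZRT1 (4.46 and 6.23), HPF1 (4.97 and 4.06) and the cell wall gene TIP1 (2.52 and 2.48) were high in both strains, without a call in the pair test. VPS41, which acts in transport to the vacuole, was at -3.50 in RCO1 and at 0.13 in SET2. In RCO1 it was below all of the 260 columns with a value for it (lowest -2.17).

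RTF1 alone had 54 genes at least 2 units above and 33 below (0.971% and 0.593% of 5561 genes). Early meiosis genes lay below their median in 14 of 17 cases, with a list median of -0.63, the 3rd lowest of all columns, and none was 2 units low. PAC2, which acts in tubulin folding, stood at 3.54, above all of the 260 with a value for it (highest 2.92). Proteasome genes lay above their median in 26 of 31 cases in RTF1, with a list median of 0.76, and in 5 of 31 in BYE1, with -0.39. In CDC73 the early meiosis list had a median of -0.27 and PAC2 a score of -0.02.

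**Figure D5:**
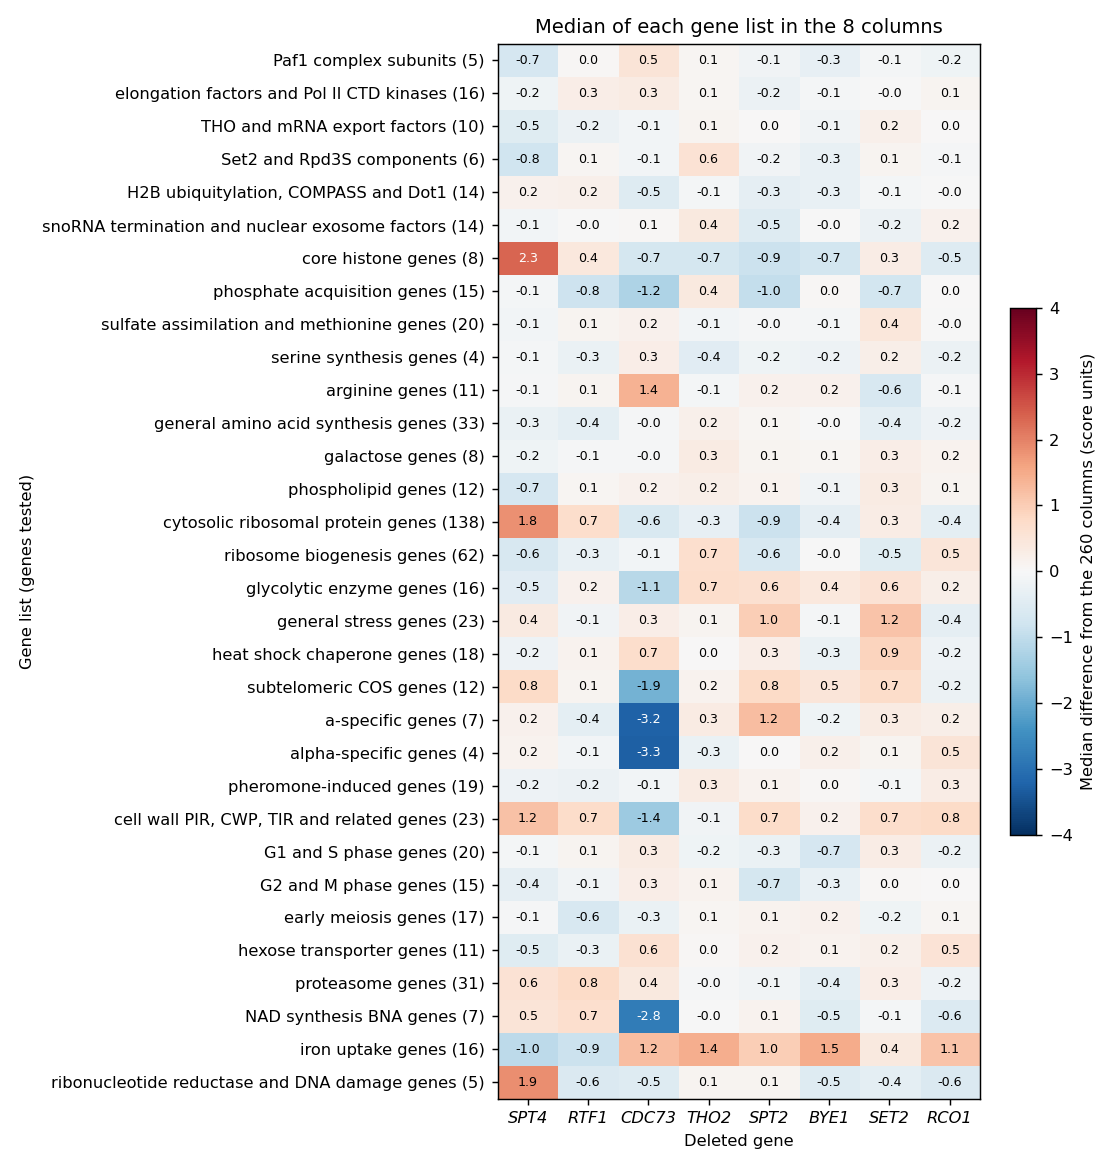
Median difference from the 260 other columns (colour and printed value, score units) for 32 gene lists (rows, number of genes tested in brackets) in the 8 columns. The NAD synthesis and mating-type lists are lowest in CDC73, the histone and ribosomal protein lists highest in SPT4, and the lists of Paf1 complex and Set2 and Rpd3S genes stay between -0.79 and 0.59.

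The genes of the elongation and chromatin machinery themselves varied by column. Over the 5 Paf1 complex genes the median difference lay between -0.66 (SPT4) and 0.50 (CDC73). Of these genes 3 had a value in CDC73 and 4 in RTF1. Over the 6 genes of Set2 and Rpd3S it lay between -0.79 (SPT4) and 0.59 (THO2), with 5 of them having a value in SET2 and in RCO1. In SPT4 all 6 Set2 and Rpd3S genes lay below their median (the 5th lowest list median of all columns). The 10 THO and export genes had a median of -0.49 there (the 7th lowest). Of 14 snoRNA termination and exosome genes 3 lay at least 2 units low in SPT4, beside 3.44% of all genes. Their list median was only -0.11, the 110th lowest. In SPT2 13 of these 14 lay below their median (list median -0.52, the 14th lowest). In CDC73 the 14 genes of H2B ubiquitylation, COMPASS and Dot1 had a median of -0.51, the 5th lowest. Of 16 elongation factor and polymerase kinase genes, ELF1 lay at least 2 units above its median and SPT5 at least 2 units below in SPT4, and none did so in the other 7 columns. Over all genes, the median difference of a column lay between -0.08 and 0.12. No gene of these 6 lists was called by limma in any of the tests.

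Features outside annotated genes were examined because Set2 and Rpd3S are known to restrain cryptic transcription. The 8 columns did not differ from the 260 beyond their spread in the median score of 29 introns (difference 0.00318, permutation p = 0.975), 299 intergenic features (0.00511, p = 0.906), 343 dubious reading frames (0.00709, p = 0.841) or 48 transposon features (0.158, p = 0.712), by two-sided permutation tests over columns. These tests pooled all 8 columns, so they do not address SET2 and RCO1 alone. Single columns did depart, with introns at -0.52 in SET2 (the 8th lowest) and 0.62 in CDC73 (rank 263 from the lowest). Transposons stood at -1.85 in SPT4 (the 18th lowest). In RCO1 introns stood at 0.02, and intergenic features at 0.03 in SET2 and 0.08 in RCO1. The introns include mitochondrial ones, of Q0185 and Q0280, and medians without them were not computed. The share of genes with a score beyond 1 in size was 36.4% in SPT4, 35.2% in CDC73 and 12.5% in THO2, and between 17.6% and 24.2% in the other 5, against a median of 21.9% in the 260. Its mean over the 8 columns was 23.7% ± 8.26 (SD) and over the 260 23.2% ± 8.04, a difference that did not pass the permutation test (p = 0.861).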

How the data were processed

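The authors' deposited value table held 1 column of scores per deletion for 6419 features, with values from -8.35 to 8.05. The labels do not state how the scores were scaled, logged, centred or normalized, and spot intensities were not used. The scores were used as deposited, in score units. Systematic names were matched to the RefSeq table of assembly R64 (5655 features), used for names, neighbours and coding lengths only, and 764 other features had no match. Genes with a value in at least 80% of columns (5615) were tested, 3783 of them with no missing value, and each strain's own deleted gene was set to missing. Column medians of the 260 ran from -0.43 to 0.17 and SDs from 0.617 to 1.98. No columns were identical.

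limma 3.58.1 in R 4.3.3 (lmFit and eBayes over all columns, Benjamini-Hochberg adjustment, threshold 0.05) compared the 8 columns, the RTF1 and CDC73 pair and the SET2 and RCO1 pair with the 260, and the pairs with each other. The pooled spread comes mostly from the 260 strains, so p-values measure the spread between strains. Cultures and technical error cannot be told apart, the spread of wild type itself is left out, and the number of arrays limits the precision. Where a fit leaves 1 strain in a pair, that strain is assumed to vary like the others. Single columns were described, with no test, by genes at least 2 units from their median in the 260. Length relations, feature classes and breadth were compared by two-sided permutation tests over columns (100000 resamples, Python 3.11.15, scipy 1.17.1, pandas 2.3.3). The fits were tested on simulated data.

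Named genes were those past a test with all strains of a pair, or at least 6 of 8 columns, on 1 side of the median, the 8 highest and 8 lowest genes of each column, the deleted genes with their neighbours, and members of 32 gene lists. SER3 (5 of 8 above), NUD1, SPI1, GLK1, the GCV, YRF1 and ASP3 families as groups were named otherwise or after their values were seen. The strains and the gene lists were chosen with earlier results of these data known. Alternatives covered normalization, genes tested, moderation, comparison columns, chromosome shifts, gene length, thresholds and each strain left out.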

Additional observations from a re-analysis of the deposited data

Results flagged for a closer look

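Of 11 values checked for a column far from the other 7, PUL3 in the SET2 column (5.27) and the transposon features in the SPT4 column (median -1.85) were singled out because their gap to the nearest column took up more of the range than Dixon's critical value allows. Chance flags about 1 in 20 such groups. The next PUL3 score was 1.94, in RCO1. PUL3 was among the values checked because limma had called it for the 8 columns, a call lost without SET2, so its place here repeats that observation. For 4 genes the Paf1 complex pair and the SET2 and RCO1 pair differed by the limma test of the difference itself, over 2 columns in each pair: ARG1 by 7.90, PUL3 by -3.67, YNR064C by -3.25 and MPA43 by -2.34 (adjusted p = 0.0116, 5.41e-07, 0.00400 and 0.00346, limma). Without SET2 all 4 calls were lost, and without CDC73 those of ARG1, YNR064C and MPA43.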

How the results depend on the processing

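No paired analysis was possible because each deletion has 1 column and the labels give no replicate numbers. Counts of called genes were 5 for the 8 columns, 16 for the Paf1 pair, 16 for the SET2 and RCO1 pair and 4 between the pairs. Quantile normalization gave 3, 7 and 33 for the first 3 of these, and testing complete genes only, which tests fewer genes, gave 8 for the SET2 and RCO1 pair and 2 between the pairs. Without columns low in mating-type markers or MET17 the 8 columns had 3 and the Paf1 pair 1. Without the SPT4 and THO2 columns, where the own gene was not low, the 8-column count was 9. Leaving out 6 comparison columns whose values hold at most 6 significant digits gave counts of 6, 21, 17 and 6. Of the alternatives chosen after seeing the data, removing the length trend gave 29 for the Paf1 pair, and leaving out SPT4 and CDC73 gave 0. The exact Mann-Whitney test gave 0. With each strain left out in turn, the counts ran from 0 (without SET2) to 6 for the 8 columns, 0 (without CDC73) to 85 (without RTF1) for the Paf1 pair, 1 (without SET2) to 19 (without RCO1) for the SET2 and RCO1 pair, and 1 (without SET2) to 19 (without RTF1) between the pairs, where it was 9 without RCO1. NUD1 turned to -0.0895 in the Paf1 pair without the columns low in markers and to -0.131 without CDC73, with or without SPT4, as RTF1 alone then remained, and it was 3.91 without RTF1. The cause of the other shifts was not tested.

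Thresholds of 1.5 and 3 units in place of 2 gave 17.9% and 2.29% of genes in SPT4, 5.72% and 0.288% in RTF1, 14.1% and 1.45% in CDC73, 1.95% and 0.0535% in THO2, 3.72% and 0.467% in SPT2, 1.58% and 0.0896% in BYE1, 5.95% and 0.445% in SET2 and 3.34% and 0.251% in RCO1. Quantile normalization gave 2.77% in SPT4, 2.36% in RTF1, 2.5% in CDC73, 1.96% in THO2, 1.36% in BYE1 and 1.69% in RCO1, against 9.8%, 1.56%, 6.14%, 0.357%, 0.591% and 1.02% as deposited, and removing the length trend gave 4.44% in SPT4. Under quantile normalization SPT2 had 2.3%, against 1.56% as deposited, and SET2 2.4%, against 2.245%. The breadth difference turned to -0.0836 points with genes centred. With each strain left out, the differences ran from -0.0846 to 0.0786 for introns, -0.0106 to 0.0296 for intergenic features, -0.000834 to 0.0180 for dubious reading frames and 0.0299 to 0.431 for transposons, and none passed its test. Among single named genes, 68.9% of the combinations of gene and alternative stayed on the same side of the threshold for the 8 columns, 64.7% for the Paf1 pair, 88% for the SET2 and RCO1 pair and 74.1% between the pairs.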

Other observations

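Of 5 telomeric features outside annotated genes, all lay below their median in SPT4, RTF1 and CDC73, by only -0.055 units for TEL3R in RTF1. In the other 5 columns all lay above it. All but TEL3R belong to the same telomere, TEL15R, and the YRF1 genes at telomeres split the columns likewise. These are therefore not independent observations. The feature TEL15R-4 scored -3.83 in SPT4, -2.08 in RTF1 and -2.70 in CDC73, and 0.95 in THO2, 1.07 in SPT2, 0.73 in BYE1, 0.10 in SET2 and 0.47 in RCO1, against a median of -0.47 in the 260 columns. TEL15R-1 stood at -2.16, -1.42 and -1.98 in SPT4, RTF1 and CDC73, and between 0.82 and 2.19 in the other 5. Both were named after their values were seen, and no test was run on them.

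Among the highest or lowest genes of single columns, YLR162W and YMR085W, both uncharacterized, were low in SPT4 (-3.73 and -3.90), RTF1 (-2.55 and -2.98) and SET2 (-2.01 and -3.03), and stood above 0 in the other 5. Their medians in the 260 columns were 2.18 and 1.24. CIP1, which inhibits a cyclin-dependent kinase, was at 4.89 in SPT2 and 4.18 in BYE1, and 64 of the 260 columns had it at least 2 units above its median.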
